A study of Mus musculus with 90 samples.

Results

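The comparison set 14 subcutaneous melanomas from mice given a control antibody, labelled normal IgG, against 3 from mice given phosphate-buffered saline (PBS), the fluid in which the antibody was dissolved. Tumours were chosen by these labels within study 2 alone, which gave 17 of the 90 arrays of the series. Every tumour carries the genotype label Hgftg;Cdk4R24C/R24C on strain B6.cBrd, so IgG and PBS tumours share the Hgf transgene and the R24C form of Cdk4 with each other and with the anti-PD-L1 tumours of the series. The growth protocol names an allograft, a melanoma transplanted into a recipient mouse, and the labels do not say what drives the transgene or how many lines were transplanted. By label the IgG dose was 10 mg/kg and the PBS volume 10 ml/kg, injected repeatedly into the peritoneum, although a dose of 20 mg/kg is also mentioned for the series. Control tumours were taken at more than 1 time, and the labels give neither the time nor the age or tumour volume for any of them. A further 8 IgG and 4 PBS tumours of study 3, under the same labels, served to see whether differences recurred.

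An isotype control antibody has the constant region of the therapeutic antibody without its target. The control here is a mouse IgG1 with the D265A substitution in its Fc part, the same backbone as the anti-PD-L1 antibody of the series. D265A weakens the binding of IgG to Fc gamma receptors, through which antibodies activate macrophages, neutrophils and NK cells, and weakens the activation of complement. Saline controls for the injection itself. IgG against PBS therefore asks whether an injected antibody that does not block PD-L1 leaves a mark on the transcripts of the tumour.

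RNA of whole tumours was measured on arrays of 45101 probe sets, and the deposited log2 values of 18194 genes were compared with limma across all 90 arrays in their 12 groups. In bulk tumours, fewer cells of a type and less RNA per cell cannot be told apart. Array medians were 5.77, 5.80 and 5.81 in PBS tumours 1 to 3 and ran from 5.80 to 5.86 in IgG tumours (difference 0.02, exact 2-sided permutation test over 680 splits, p = 0.05, adjusted p = 0.15 over 3 measures). For Actb and for Gapdh the array holds control probes at both ends of the transcript, and the 3 prime minus 5 prime difference is a sign of RNA integrity. IgG and PBS tumours differed in it by -0.07 and 0.04 (exact permutation p of 0.585 and 0.753, adjusted p = 0.753 for both). None of the 136 pairs of arrays was identical. Animal numbers in the labels ran from 223226 to 223232 for PBS and from 223234 to 223253 for IgG, so treatment and any cage or cohort that follows these numbers cannot be told apart.

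IgG and PBS tumours of study 2 differed in 1 gene. Hsd3b1, which encodes the enzyme 3 beta-hydroxysteroid dehydrogenase of steroid hormone synthesis, was lower in IgG tumours by limma with Benjamini-Hochberg adjustment (adjusted p = 0.0113), which is 0.0055% of the 18194 genes, and 0 genes were called higher. At an unadjusted p under 0.05 there were 140 higher and 98 lower genes, 1.31% of all genes. The next lowest adjusted p was 0.99983. The median difference over all genes was 0.01 on the log2 scale, with 53.8% of genes above 0, and the median standard error was 0.15. For 17014 genes (93.5%) the 95% interval of the difference lay within 1 of 0, which excludes a 2-fold difference in deposited values in either direction. Low values are compressed, so for dim genes this does not exclude a 2-fold difference in RNA. For the other 1180 genes a 2-fold difference was not excluded at this number of tumours and the spread within all 12 groups. All intervals given here use that shared spread, which includes the anti-PD-L1 tumours.

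The Hsd3b1 call rested on 1 tumour. Its log2 values were 8.40, 4.34 and 4.10 in PBS tumours 1 to 3, and 4.03, 4.20 and 4.48 as the lowest, median and highest of the 14 IgG tumours. PBS tumour 1 stood far above every other array of the series, of which the highest was at 4.51, and PBS tumours 2 and 3 lay within the IgG range, so the groups overlapped. The difference was -1.42 ± 0.26 (SE, 14 against 3). Without PBS tumour 1 it was -0.02 and limma called 0 genes, with 392 at an unadjusted p under 0.05. Fitting only the 17 tumours also gave 0 calls, with 453 genes at an unadjusted p under 0.05, and there the adjusted p of Hsd3b1 was 0.999. With array weights by limma's gene-by-gene method, which gave PBS tumour 3 a weight of 4.47 against 0.516 and 0.867 for the other two, 141 genes were called and Hsd3b1 was not among them (adjusted p = 0.391).

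PBS tumour 1 was also alone in the level of Akr1cl and Inha. These and Hsd3b1 were the 3 genes in which it exceeded every other array of the series by more than 1 on the log2 scale, a list made after the values were seen. Such genes also occurred in the IgG group, with 4 in IgG tumour 11 (the secretory protein genes Mucl2, Pip, Scgb1b27 and Scgb2b27) and 1 in IgG tumour 7 (Pcdh17), and in none of the other study 2 tumours. Akr1cl encodes an aldo-keto reductase of the family that includes steroid-converting enzymes, and Inha the alpha subunit of inhibin, a hormone of gonads and adrenal. Their start regions are shown because the 3 genes were high in the same tumour. The sequences are the 300-base windows of RefSeq, build GRCm38.p6, from 250 bases before to 50 after the annotated start, read on the gene's strand. Capitals mark TTTAAA, which resembles a TATA box and was searched for after the sequences were seen, and AGGTCA, the half-site of nuclear receptors such as SF-1, each searched on both strands.
Hsd3b1, chr3:98859745-98860044, minus strand: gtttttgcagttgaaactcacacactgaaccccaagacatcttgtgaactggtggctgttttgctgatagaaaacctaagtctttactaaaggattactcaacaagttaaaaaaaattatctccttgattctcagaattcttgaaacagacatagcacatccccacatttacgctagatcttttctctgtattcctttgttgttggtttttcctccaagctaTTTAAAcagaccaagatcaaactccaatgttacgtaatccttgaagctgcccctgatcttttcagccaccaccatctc
Akr1cl, chr1:65032710-65033009, minus strand: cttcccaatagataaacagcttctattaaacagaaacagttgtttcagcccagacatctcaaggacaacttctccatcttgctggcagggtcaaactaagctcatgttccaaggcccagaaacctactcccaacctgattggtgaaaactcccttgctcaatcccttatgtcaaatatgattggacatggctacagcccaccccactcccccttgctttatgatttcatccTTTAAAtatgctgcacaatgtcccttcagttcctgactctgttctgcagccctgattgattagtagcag
Inha, chr1:75507359-75507658, plus strand: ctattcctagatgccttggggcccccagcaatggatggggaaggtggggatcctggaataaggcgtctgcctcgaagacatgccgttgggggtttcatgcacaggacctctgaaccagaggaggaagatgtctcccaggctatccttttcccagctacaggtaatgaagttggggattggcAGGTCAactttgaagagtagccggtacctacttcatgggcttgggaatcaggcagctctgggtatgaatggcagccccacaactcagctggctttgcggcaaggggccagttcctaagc
TTTAAA begins 28 bases before the start of Hsd3b1 and 19 before that of Akr1cl, and occurs in 13.2% of the 32851 windows of this length. AGGTCA was found in the Inha window alone, 69 bases before the start used, and occurs in 16.3% of all windows. The start used for Inha lies 532 bases inside the gene as RefSeq places it (chromosome 1, 75507077 to 75510366). A match is a run of letters and no evidence of binding.

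In Akr1cl, PBS tumour 1 was at 8.07 and PBS tumours 2 and 3 at 4.83 and 5.19, while IgG tumours had a lowest, median and highest value of 4.75, 5.10 and 5.44. The difference was -0.91 ± 0.23 and did not pass (limma adjusted p above 0.99). It passed once PBS tumour 2 or 3 was left out, at -1.51 (adjusted p = 0.000338) and -1.34 (adjusted p = 0.0231), and turned to 0.11 without PBS tumour 1. Inha read 7.64, 4.89 and 5.25 in the PBS tumours and 4.87, 5.39 and 5.71 as lowest, median and highest in IgG tumours, a difference of -0.55 ± 0.25 that turned to 0.31 without PBS tumour 1. PBS tumours 2 and 3 lay within the IgG range for both genes. The genes that carry out the first steps of steroid synthesis did not share the pattern. Star, which brings cholesterol into mitochondria, read 6.30, 6.34 and 6.34 in PBS tumours, within the IgG range of 6.08 to 6.74. Cyp11a1, which makes pregnenolone, read 5.29, 5.67 and 5.40 against 5.22 to 5.79 in IgG tumours. PBS tumour 1 had the highest skeletal muscle signal of the PBS group (a list mean of 9.60). IgG tumours 1 and 7 had higher list means, 10.02 and 10.37, with Hsd3b1 at 4.27 and 4.07. With the list mean as a covariate the Hsd3b1 difference was -1.40 (limma adjusted p = 0.0197). A slope shared by all arrays cannot absorb the value of a single tumour. Whether muscle content bears on the Hsd3b1 value of PBS tumour 1 was therefore not tested.

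**Figure D1:**
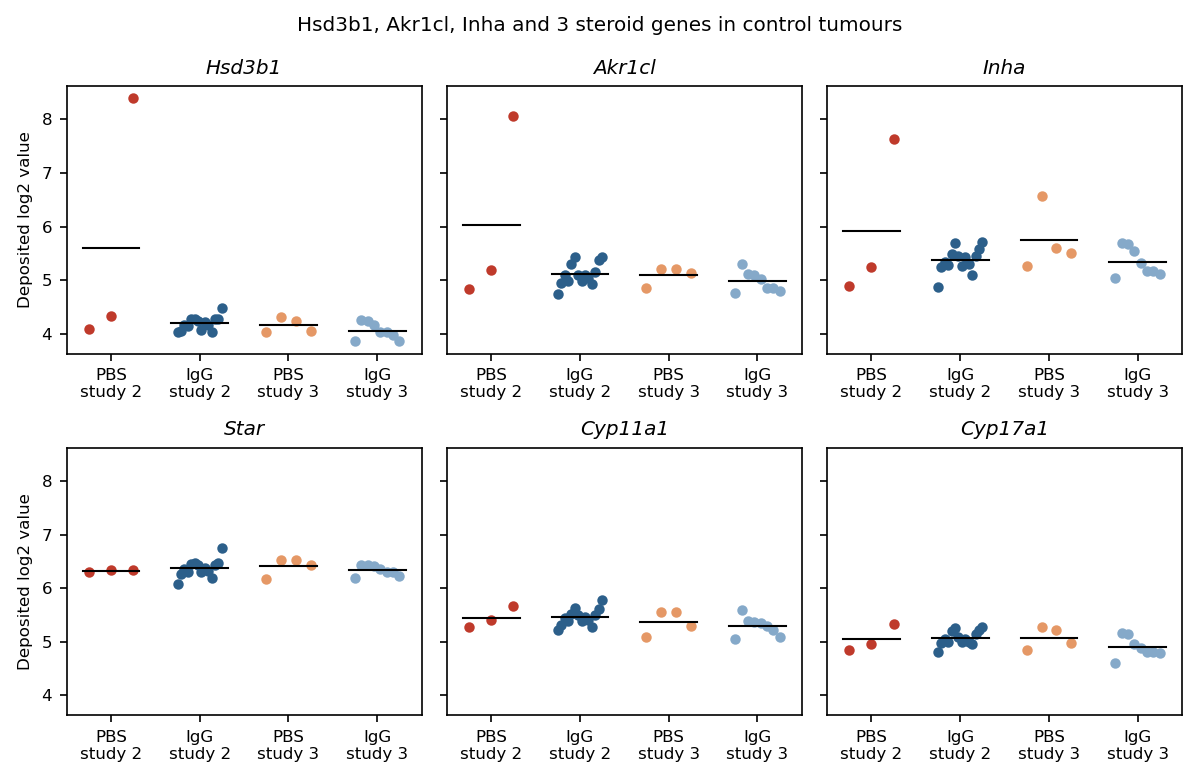
Deposited log2 values of 6 genes (vertical axis) in each control tumour of study 2 (3 PBS, 14 IgG) and study 3 (4 PBS, 8 IgG), with the group mean as a line. PBS tumour 1 of study 2 stands alone at 8.40 for Hsd3b1, 8.07 for Akr1cl and 7.64 for Inha, and the 3 genes in the lower row show no such tumour.

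Other genes with low p-values did not pass limma's adjustment, and their differences were small. On the higher side the lowest p belonged to Lmo3, a LIM-domain transcriptional cofactor. It read 4.48, 4.37 and 4.56 in PBS tumours and 4.42, 4.82 and 5.10 as lowest, median and highest in IgG tumours, with a difference of 0.34 ± 0.09. Pcdh9, a protocadherin of cell adhesion, Lingo3, a leucine-rich repeat membrane protein, and Dll4, a Notch ligand of endothelium, followed at 0.44 ± 0.13, 0.60 ± 0.20 and 0.38 ± 0.13. Slco6d1, Hic2, Rasgrp4, Hcn2, St8sia5 and Spaca7 complete the 10 lowest p-values in this direction, with differences from 0.23 to 0.37. On the lower side, Amdhd2, which deacetylates N-acetylglucosamine 6-phosphate, read 9.68, 9.66 and 9.76 in PBS tumours and 9.02, 9.33 and 9.51 in IgG tumours. All 14 IgG tumours lay below all 3 PBS tumours, and the difference was -0.40 ± 0.12. Nsun3, an RNA methyltransferase of mitochondria, Oas1c, of the 2-5 oligoadenylate synthetase family, and Nagk, a kinase of N-acetylglucosamine, had differences of -0.46 ± 0.16, -0.48 ± 0.17 and -0.37 ± 0.14. Each value comes from 1 probe set, the gene's brightest. Other probe sets gave -0.07 for Dll4, 0.07 and 0.12 for Pcdh9, and -0.08 and 0.04 for Hic2. They gave 0.15, -0.02 and 0.07 for Nsun3, and -0.18 for Nagk. Over all genes, all IgG tumours lay above all PBS tumours in 23 (0.126%) and below them in 23 (0.126%).

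The transcripts of proteins that bind antibody showed no called difference. Of the 12 measured Fc gamma receptor and adaptor genes limma called 0, and 0 had an unadjusted p under 0.05. Their median difference was -0.07, beside 0.01 over all genes, with 2 of 12 above 0. Fcgr4, an activating receptor of myeloid cells, read 9.47, 9.98 and 9.46 in PBS tumours and 7.74, 9.72 and 11.18 as lowest, median and highest in IgG tumours. The PBS tumours lay inside the IgG spread, and the difference was -0.07 with a 95% interval from -1.05 to 0.91. The interval was -0.86 to 0.84 for Fcgr1, the high-affinity receptor, and -0.78 to 0.71 for Fcgr2b, the inhibitory receptor. For Fcgr3, the activating receptor that binds mouse IgG1, it ran from -1.14 to 0.62, so a 2-fold fall was not excluded. Fcgrt, the receptor that spares IgG from degradation, differed by -0.18 (-0.79 to 0.42) and Trim21, the cytosolic antibody receptor, by -0.09 (-0.51 to 0.33).

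Complement and immunoglobulin genes had no called member. Of 15 complement genes 8 were above 0 and 0 had an unadjusted p under 0.05. The chains of C1q, which recognises bound antibody, differed by -0.27 (C1qa), -0.27 (C1qb) and -0.26 (C1qc), each with an SE of 0.39 to 0.42. Other probe sets of C1qb gave -0.64 and -0.49. Of 11 plasma cell and immunoglobulin genes and 14 B cell genes 0 were called. Ighm, the IgM heavy chain, read 9.75, 8.91 and 7.35 in PBS tumours and 7.19, 8.38 and 10.95 as lowest, median and highest in IgG tumours. PBS tumours thus spread over most of the IgG range, and the interval of the difference, -1.75 to 1.59, was wide. The interval of Jchain, which joins IgM and IgA subunits, was wider still, -1.76 to 2.24.

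**Figure D2:**
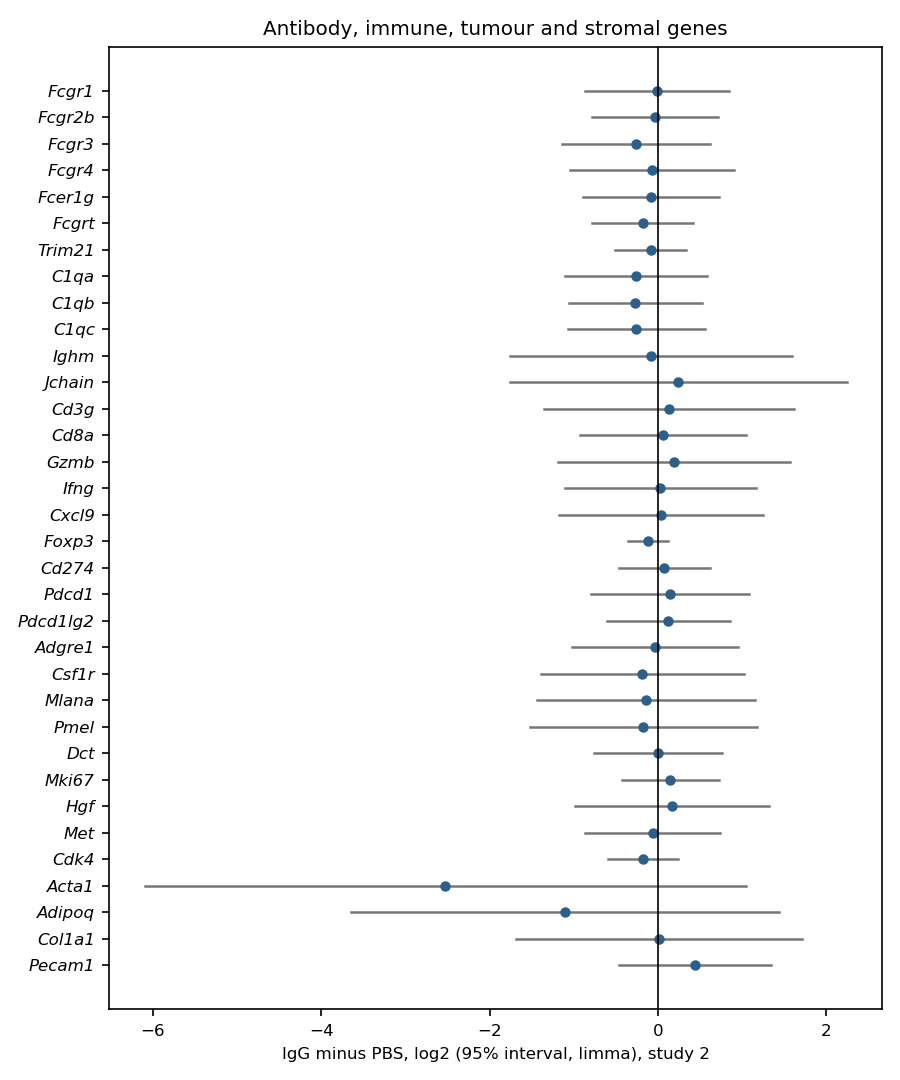
Difference between IgG and PBS tumours of study 2 on the log2 scale (horizontal axis) for the 34 measured genes of a chosen set, as points with limma's 95% interval as bars. Every interval crosses 0, and that of Acta1, an actin of skeletal muscle, reaches from -6.10 to 1.05.

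T cell, cytotoxic and interferon transcripts did not separate the groups either. The per-tumour mean of 16 cytotoxic genes was 6.59, 6.82 and 6.28 in PBS tumours and 5.71, 6.69 and 7.41 as lowest, median and highest in IgG tumours, so the PBS tumours lay within the IgG range. In this list 8 of 16 genes were above 0, with a median of 0.01. Gzmb, a granule protease of killer cells, differed by 0.19 (95% interval -1.19 to 1.57), Ifng by 0.03 (-1.10 to 1.16) and Cd8a by 0.06 (-0.93 to 1.05). The interferon gamma list had 12 of 16 genes above 0 with a median of 0.08 (0.25 without PBS tumour 1, -0.0079 without PBS tumour 3), and its chemokine Cxcl9 differed by 0.04 (-1.18 to 1.25). Of 18 type I interferon genes 6 were above 0, with a median of -0.05. All 3 lists had 0 calls by limma and 0 genes at an unadjusted p under 0.05.

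Genes of the PD-1 pathway had no called difference. Cd274, which encodes PD-L1, read 8.45, 8.19 and 8.41 in PBS tumours and 8.02, 8.47 and 9.12 in IgG tumours, a difference of 0.08 (95% interval -0.46 to 0.61). Pdcd1, which encodes PD-1, differed by 0.14 (-0.80 to 1.08), and Pdcd1lg2, the other ligand, by 0.12 (-0.60 to 0.85). In the checkpoint and exhaustion list 11 of 12 genes were above 0 with a median of 0.11, and 0 were called. Icos, a costimulatory receptor of activated T cells, read 5.97, 6.00 and 5.96 in PBS tumours and 6.14 to 6.81 in IgG tumours. All IgG tumours thus lay above all PBS tumours, a pattern of 0.126% of all genes. The difference was 0.34 with an unadjusted p of 0.327 by limma, which used the spread of Icos within all 12 groups of the series. The T cell receptor segment Trav12n-2 had the same order, at 0.23 (p = 0.156). Foxp3, the factor of regulatory T cells, differed by -0.12 (-0.36 to 0.12).

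Most macrophage transcripts had a higher mean in PBS tumours, without a call. In this list 4 of 17 genes were above 0, the median was -0.16, and 0 had an unadjusted p under 0.05. Cd163, a scavenger receptor of tissue macrophages, read 5.47, 7.42 and 6.29 in PBS tumours and 3.85, 5.19 and 6.77 in IgG tumours, and the difference of -1.17 had an interval from -2.60 to 0.25. PBS tumour 2 was above all IgG tumours and the other PBS tumours were within their range. The general macrophage genes Adgre1 and Csf1r differed by -0.04 and -0.18. Without PBS tumour 2 the list's median was 0.05.

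Neutrophil genes had higher means in IgG tumours, without a call. All 12 measured members were above 0, beside 53.8% of all genes, with a median of 0.20, and 0 were called or had an unadjusted p under 0.05. S100a9, a calcium-binding protein that neutrophils carry in bulk, read 4.91, 6.36 and 6.55 in PBS tumours and 4.89, 7.37 and 9.01 as lowest, median and highest in IgG tumours, a difference of 1.29 ± 0.80. The neutrophil chemokine Cxcl2 differed by 1.06 ± 0.79. It belongs to the list of inflammatory chemokines and cytokines, in which 11 of 17 genes were above 0 and 6 below, with a median of 0.16. Without PBS tumour 1 the differences were 0.77 for S100a9 and 0.40 for Cxcl2. The list medians were then 0.22 for neutrophil genes and 0.05 for the inflammatory list. In study 3, 8 of 12 neutrophil genes were above 0 (median 0.05) and 8 of 17 inflammatory genes (median -0.07), with 0 calls. Over all genes of study 3, 37.0% were above 0 and the median was -0.05. Nos2, the inducible nitric oxide synthase of the same inflammatory list, was 1 of only 2 list genes with an unadjusted p under 0.05 (0.38 ± 0.15, p = 0.0117 by limma, adjusted p above 0.99). Over the 497 different genes of the 39 lists, those 2 are 0.402%, beside 1.31% of all genes.

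The other was Car9, carbonic anhydrase 9, a target of hypoxia-inducible factor. Car9 read 6.48, 8.31 and 7.91 in PBS tumours and 6.62, 9.12 and 10.11 in IgG tumours, with a difference of 1.44 ± 0.63 (limma p = 0.024, adjusted p above 0.99). All 16 genes of the hypoxia and glycolysis list were above 0, with a median of 0.40 and 0 calls. Egln3, an oxygen-sensing prolyl hydroxylase, was at 1.11 ± 0.56, P4ha1, which hydroxylates collagen, at 0.39 ± 0.20, Vegfa at 0.42 ± 0.26 and Ldha, lactate dehydrogenase, at 0.21 ± 0.13. The list means were 9.54, 10.29 and 10.22 in PBS tumours and 9.47, 10.47 and 11.22 as lowest, median and highest in IgG tumours, so all 3 PBS tumours lay below the IgG median and within the IgG range. Without PBS tumour 1, the lowest of the PBS group, the median difference was 0.22, and the differences were 0.90 for Car9, 0.29 for Egln3, and 0.19 for both P4ha1 and Vegfa. In study 3 the list went the other way, with 1 of 16 genes above 0 and a median of -0.29, again with 0 calls. Of all genes in study 3, 37.0% were above 0, with a median of -0.05.

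Stress-response lists also had most differences above 0. Of 15 heat shock and unfolded protein response genes 13 were above 0 with a median of 0.19, and of 14 immediate early genes 13 with a median of 0.22, all without a call. Hspa1a, an inducible HSP70, differed by 0.85 ± 0.52, Atf4, the factor of the integrated stress response, by 0.22 ± 0.12, and Nr4a1, an immediate early nuclear receptor, by 0.35 ± 0.27. The heat shock means were 10.41, 10.38 and 10.42 in PBS tumours, and 13 of the 14 IgG tumours lay above all 3. Without PBS tumour 1 Hspa1a was at 0.52 and Atf4 at 0.13. The list medians were then 0.24 for heat shock and 0.23 for immediate early genes, and 0.14 and 0.16 without PBS tumour 2. In study 3 the heat shock list had 11 of 15 genes above 0 (median 0.19) and the immediate early list 12 of 14 (median 0.34), with 0 calls. The share of all genes above 0 in study 3 was 37.0%.

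**Figure D3:**
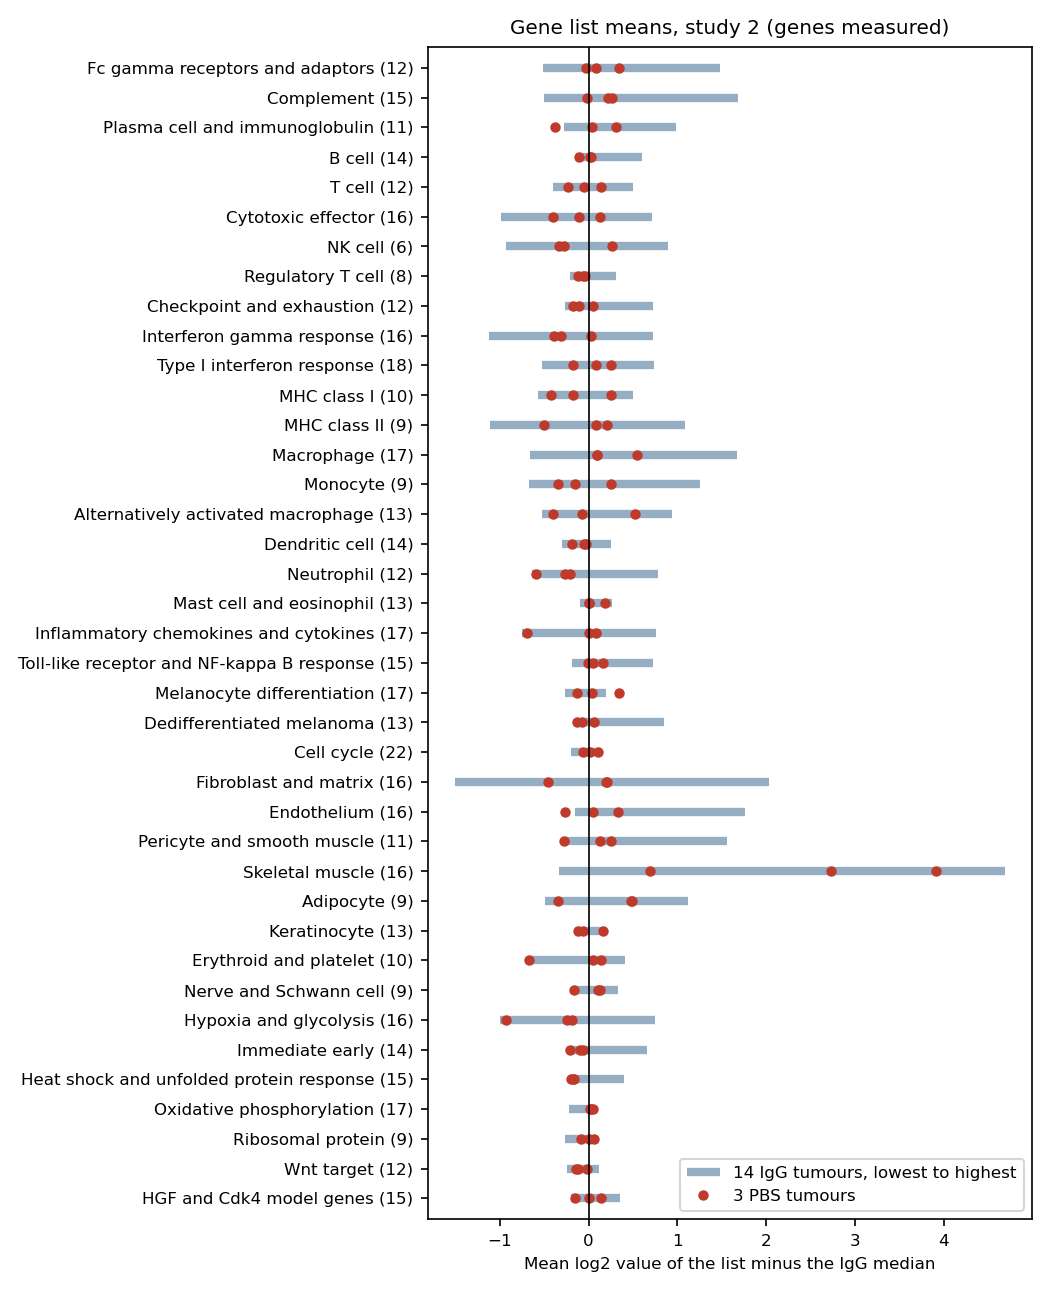
Per-tumour mean of each of 39 gene lists in study 2, relative to the median of the IgG tumours (horizontal axis, log2). Bars span the 14 IgG tumours and points are the 3 PBS tumours. In 31 lists all 3 points lie on the bar, in 0 lists do the groups separate, and the skeletal muscle bar is the longest.

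Members of the skeletal muscle list made up 11 of the 25 genes whose group means differed by 2-fold or more, without a call. This count leaves out muscle genes that are not on the list, such as Myl2 (-1.44) and Mybpc2 (-1.20). Of the 25 genes, 21 were lower and 4 higher in IgG tumours. The skeletal muscle list had a median of -1.54 with 1 of 16 genes above 0, 0 calls and 0 unadjusted p-values under 0.05. Acta1 read 12.35, 7.98 and 11.20 in PBS tumours and 5.30, 6.73 and 13.21 as lowest, median and highest in IgG tumours, a difference of -2.53 ± 1.80. The list means were 9.60, 6.38 and 8.41 in PBS tumours and 5.35, 5.68 and 10.36 in IgG tumours. A mean above 7 was seen in 2 of 3 PBS and 4 of 14 IgG tumours, so high tumours occurred in both groups. The median fell to -0.66 without PBS tumour 1 and grew to -2.55 without PBS tumour 2. Adipocyte genes had 3 of 9 above 0 and a median of -0.11, with Adipoq, the hormone adiponectin, at -1.11 ± 1.28.

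Melanocyte, cell cycle and model genes had no called difference. Of 17 melanocyte differentiation genes 5 were above 0 with a median of -0.06, and list means of 10.16, 9.85 and 9.69 in PBS tumours met 9.56, 9.82 and 10.02 in IgG tumours. PBS tumour 1 was above the IgG range. Pigment cell markers were mostly bright, with Dct, a melanin synthesis enzyme, between 14.07 and 14.37 in all 17 tumours. The 95% interval of its difference, with the spread of all 12 groups, ran from -0.76 to 0.76. Tyr, which encodes tyrosinase, read 3.41 to 3.90, as low as Eif2s3y of the Y chromosome in the same tumours (2.95 to 3.73). Of 22 cell cycle genes 10 were above 0 with a median of -0.01, and Mki67, a proliferation marker, differed by 0.15 (-0.42 to 0.72). Hgf, the transgene's product, and Met, its receptor, differed by 0.17 (-0.99 to 1.33) and -0.06 (-0.86 to 0.74). Other probe sets gave 0.44 and -0.01 for Hgf and 0.29 for Met. Cdk4, the other gene altered in the model, read 11.66, 11.70 and 11.71 in PBS tumours and 11.22, 11.55 and 11.65 in IgG tumours. All IgG tumours lay below all PBS tumours, as in 0.126% of all genes. The difference of -0.18 did not pass with the spread of all 12 groups (limma unadjusted p = 0.399).

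The spread of single tumours was larger than the typical difference between group means, though these are unlike measures. The median SD of a gene was 0.20 among IgG and 0.19 among PBS tumours. The median absolute difference was 0.09, beside a median standard error of the difference of 0.15. In a principal component analysis of the 17 tumours the first and second component held 41.9% and 22.1% of the variance, and the PBS tumours lay within the IgG range on both. On the third, with 8.29%, PBS tumour 1 was at -21.49, below the lowest IgG tumour at -14.53, and the other PBS tumours lay within the IgG range. IgG tumour 7 was the lowest on the first and second and had the highest list mean of the IgG group in 20 of 39 lists, among them fibroblast and matrix (11.48, IgG median 9.46) and macrophage (10.76, IgG median 9.09). Leaving it out left 1 called gene.

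**Figure D4:**
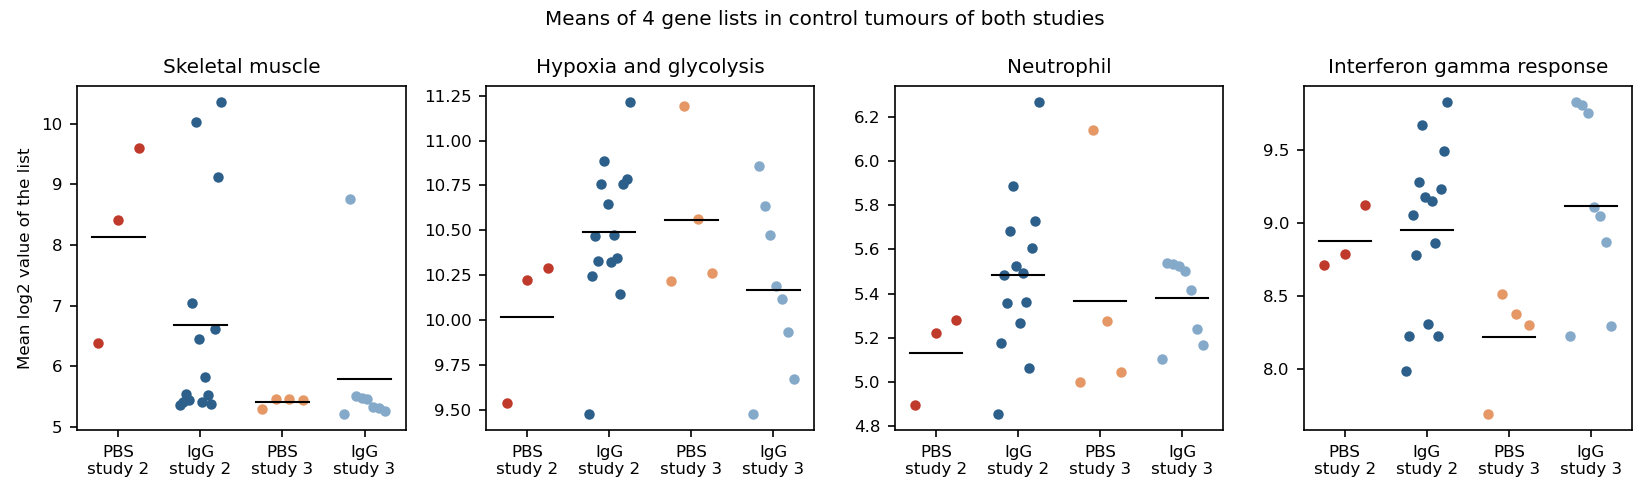
Per-tumour means of 4 gene lists (vertical axis, log2, each panel with its own scale) in PBS and IgG tumours of studies 2 and 3, with the group mean as a line. In study 2 the groups overlap in all 4 panels, and the hypoxia and glycolysis means have the higher group mean in IgG in study 2 and in PBS in study 3.

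The same comparison in study 3 gave 88 called genes by limma, 0.484% of all genes, 56 of them higher and 32 lower in IgG tumours. Here too animal numbers lie apart, at 189746 to 189749 for PBS and 200370 to 200381 for IgG. PBS tumour 2 of study 3 had 3 prime minus 5 prime differences of 6.09 for Actb and 4.31 for Gapdh, where the study 2 control tumours reached 0.70 and 0.25. Without that tumour 20 genes were called, with the difference as a covariate 12, and with only the 12 tumours fitted 4. The count was 294 without PBS tumour 1 of study 3, 142 without PBS tumour 3, and 54 without IgG tumour 1 or IgG tumour 5. The strongest call was Eif2s3y, a gene of the Y chromosome. It ran from 4.78 to 5.92 in the PBS tumours of study 3 and from 3.07 to 3.98 in its IgG tumours, without overlap, while all 17 tumours of study 2 lay between 2.95 and 3.73. Xist, the RNA of the inactive X chromosome, was lower in those PBS tumours, at 6.41 to 6.87 against 8.17 to 10.32. The Y-linked genes Kdm5d and Uty overlapped between these groups, with Kdm5d at 3.88 to 4.05 in PBS and 3.65 to 4.16 in IgG tumours, and Uty at 3.87 to 4.13 and 3.62 to 3.91.

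Of the 88 genes called in study 3, 60 had the same sign in study 2 and 1, Gpr151, an orphan receptor, had an unadjusted p under 0.05 there, with the opposite sign (0.23 against -0.41). For 87 the study 3 value lay outside the 95% interval of study 2, a count that selection for large study 3 differences favours. Over all genes 2922 did so. Hsd3b1 differed by -0.11 ± 0.25 and Akr1cl by -0.13 ± 0.22 in study 3. Across the 18194 genes the differences of both studies had a Pearson correlation of 0.13 and the same sign in 52.7%. Genes are not independent replicates. The interferon gamma list, with a median of 0.08 in study 2, had 16 of 16 genes above 0 in study 3. Its median there was 0.85, without a call, beside 37.0% above 0 and a median of -0.05 over all genes.

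A direct test of the difference between studies passed for 1 gene, Eif2s3y (2.06 ± 0.25, limma adjusted p = 2.2e-08, 0.0055% of genes), with 1076 genes (5.91%) at an unadjusted p under 0.05. The next lowest adjusted p was 0.0551, for Gpr151. Averaged over studies 1 gene was called, again Eif2s3y (-1.03 ± 0.12, 0.0055% of genes), and 1185 (6.51%) had an unadjusted p under 0.05. Pcgf5, a Polycomb subunit, was among the 5 lowest p-values on the higher side, at 0.36 in study 2 and 0.45 in study 3, and did not pass. Its other probe sets gave 0.10 and 0.07 in study 2.

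**Figure D5:**
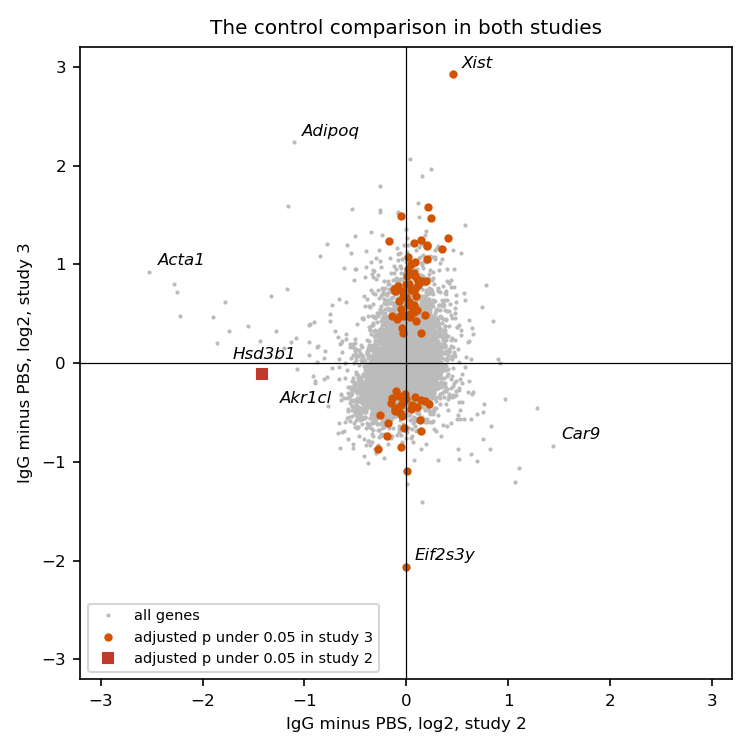
Difference between IgG and PBS tumours on the log2 scale in study 2 (horizontal axis) and study 3 (vertical axis), 1 point per gene. The 88 genes called in study 3 sit close to 0 on the study 2 axis, and Hsd3b1, called in study 2, sits close to 0 on the study 3 axis.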

How the data were processed

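RNA of whole tumours was labelled and hybridised to arrays, and the deposited values are log2 expression values per probe set, made with RMA and limma per the submitters' processing notes, without versions. The sources used here do not state whether RMA was run on studies 2 and 3 jointly. Of 45101 probe sets 34958 carry 1 gene symbol in the platform annotation, 932 several and 9211 none. Each of 18194 genes was read from its single-symbol probe set of highest mean over the 90 arrays, and 18029 genes matched RefSeq by Entrez identifier. With RMA values, low levels are compressed, so differences of dim genes are understated.

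Group means of 12 groups were fitted with limma 3.58.1 in R 4.3.3 (lmFit, eBayes), with Benjamini-Hochberg adjustment over all genes and a threshold of 0.05. Errors after ± are standard errors from this fit. Tumours carry separate animal numbers and are numbered in accession order. Array quality was compared by an exact permutation test. The 39 gene lists were not tested as sets. The lists and the tumours compared were chosen with earlier results of these data known. Named genes are the 10 lowest p-values in each direction, 3 members of lowest p per list, a chosen set of 38 genes (34 measured), and the genes of lowest p between and over studies. Predicted genes and some others are left out for length, and Inha, Star, Cyp11a1, Nos2, Icos, Cxcl2, Ldha, Vegfa, Xist and other list members shown for their role were added after their values were seen. The procedure was tested on simulated data. Alternatives covered the prior variance, array weights, samples fitted, probe sets, dim genes, centring, covariates, threshold and each tumour left out.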

Additional observations from a re-analysis of the deposited data

Results flagged for a closer look

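In groups of 4 to 10 tumours, a value was taken as apart when its gap to the nearest other tumour exceeded Dixon's 95% critical value, 0.829 of the range for 4 tumours and 0.526 for 8. The groups of study 2 were too small or too large for this, so 22 groups of study 3 values were examined, of which chance picks out about 1 in 20. PBS tumour 2 of study 3 stood apart in 4 measures. Its 3 prime minus 5 prime differences were 6.09 for Actb and 4.31 for Gapdh, its skeletal muscle mean of 5.30 was the lowest of its group, and its Xist value of 6.87 the highest. IgG tumour 3 of study 3 had a skeletal muscle mean of 8.75, above the other 7, and IgG tumour 7 a Gapdh difference of 0.0729. A difference between studies was found for Eif2s3y, whose IgG minus PBS value was higher by 2.06 in study 2 than in study 3 (limma adjusted p = 2.2e-08).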

How the results depend on the processing

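Numbers below are genes called by limma. In study 2 the 1 called gene became 0 when only the 17 tumours or only the control tumours of both studies were fitted, when genes below the median level were left out, and at a threshold of 0.01. Leaving out each PBS tumour gave 0 (PBS tumour 1) to 2 genes, and each IgG tumour 1. With limma's default array weights 2308 were called, and that estimate stopped before it converged. The gene-by-gene method of weights, chosen after seeing the data, gave 141. Both weigh PBS tumour 3 above PBS tumours 1 and 2, so a PBS group of 3 comes to rest mostly on 1 tumour. Among 83 named genes, the default weights turned Inha to 0.0234, Mlana from -0.14 to 1.06 (adjusted p = 0.0101) and Aldh1a1 to 0.17, and called 26, 9 of them members of lists. The gene-by-gene method called 10 of the 83 and no list member. Leaving out 1 PBS tumour moved 53 of the 83 by over 1.5 times and turned the sign of 25, most of them near 0. Without PBS tumour 1 Akr1cl turned to 0.11 (to -1.51 without PBS tumour 2) and Inha to 0.31 (to -1.07 without PBS tumour 2). On whole lists 5 alternatives were run (the mean of probe sets, centring and each PBS tumour left out). Under these no member was called, and none of the 195 list medians moved beyond the SD of the list mean among IgG tumours. That bound is wide and does not show that medians were stable. Within it the skeletal muscle median moved from -1.54 to -0.66 without PBS tumour 1 and to -2.55 without PBS tumour 2. The macrophage median turned from -0.16 to 0.05 without PBS tumour 2.

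In study 3 the 88 became 4 with the 12 tumours alone, 12 with the controls of both studies or the 3 prime to 5 prime covariate, 13 and 159 at thresholds of 0.01 and 0.10, and 56 with arrays centred on their medians. They became 211 without 5 tumours low in melanocyte transcripts, 160 with the melanocyte covariate and 359 with every probe set tested. Array weights gave 3835 and 2871. Leaving out 1 tumour gave 20 (PBS tumour 2) to 294 (PBS tumour 1) genes, 142 without PBS tumour 3, and 54 without IgG tumour 1 or 5. The cause was not tested.

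For the difference between studies the 1 gene became 2 with a trend in the prior variance, with controls only, without the 5 tumours, with every probe set, with the melanocyte covariate and at 0.10, 6 with the mean of probe sets, and 0 without dim genes (342 at an unadjusted p under 0.05). Array weights gave 1825 and 582, and leaving out 1 tumour 1 to 3. For the mean over studies the 1 gene became 6 with controls only, 2 without the 5 tumours and with the mean of probe sets, 3 with every probe set and 0 without dim genes (687 at an unadjusted p under 0.05). Array weights gave 4905 and 2979. Leaving out 1 tumour gave 1 to 51 (PBS tumour 1 of study 3). The cause was not tested.

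No paired analysis was possible because the labels give each tumour its own animal number and no number shared between groups. The PBS group of 3 limits precision, and p-values measure the spread between tumours.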
